A study of Mus musculus with 8 samples.

Results

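Nestin (Nes) and 9 genes that mark Mueller glia or their reaction to injury were followed in the retinae of wildtype (WT) mice and of mice with a quadruple knockout (KO) of Bcan, Ncan, Tnc and Tnr. The 10 genes were taken by symbol from the 18058 genes of the deposited table, and all 10 were present and among the 17636 genes tested. Nes was chosen from its measured values in this comparison, where it was low in the quadruple KO, so its values are given as a description without a test. Gfap, Vim, Glul, Slc1a3, Sox9, Stat3, Edn2, Lcn2 and S100b were chosen for their known roles in glia or in the reaction of the retina to injury. The question was whether the lower level of Nes, a neighbour of the targeted gene Bcan, came with a change of the glial reactivity genes. Nes lay below every WT library in each quadruple KO library, whereas none of the other 9 genes was called different between the genotypes.

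Mueller glia span the whole thickness of the retina, clear glutamate and potassium, and turn glutamate into glutamine for return to neurons. After injury or in degeneration they become reactive, and the intermediate filament proteins GFAP, vimentin and nestin accumulate. STAT3 signalling downstream of the gp130 cytokine receptors is engaged. Secreted factors such as endothelin-2 and lipocalin-2 appear in the retina. Nestin is best known as the filament protein of neural progenitor cells. GFAP and S100B are also found in retinal astrocytes, which lie in the nerve fibre layer along the vessels.

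Both groups were adult mice, and retinal total RNA was sequenced from 4 samples of each genotype, lettered A to D. The quadruple KO mice lacked functional copies of genes for 4 proteins of the extracellular matrix (Tnr, tenascin-R; Tnc, tenascin-C; Ncan, neurocan; Bcan, brevican) in all cells and at all ages, and the WT mice came from the inbred background strain. The effect of the 4 alleles and any other difference between the 2 mouse lines, including DNA that is inherited together with the Bcan allele, cannot be told apart in these samples. The values are normalized counts, in which the authors divided the estimated counts of each gene by normalization factors of the library. Genotypes were compared on log2(normalized count + 1) with limma, and a gene was called at a Benjamini-Hochberg adjusted p under 0.05 over the 17636 genes. On this scale the fold change of genes with low counts is understated.

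The targeted genes followed the labels for Bcan, Ncan and Tnr, with Bcan between 197.2 and 326.5 normalized counts in WT and between 11.49 and 22.08 in the quadruple KO, Ncan between 569.4 and 788.7 against 0 to 0.8534, and Tnr between 5578 and 6317 against 2374 to 2580. Tnc RNA was at 881.2 to 1592 in WT and 1024 to 1249 in the quadruple KO. The paper reports that a stretch of the Tnc and of the Tnr sequence is lost in the quadruple KO. By western blot of postnatal retinae it did not detect either protein there. WT B and WT C stood apart from the other 6 libraries along the first principal component, which held 50.9% of the variance, and the 13 mitochondrially encoded mRNAs took 0.402% and 0.341% of their counts compared with 1.28% to 1.64% elsewhere. For the 10 genes and for the lists, the log2 fold change is therefore also given against WT A and WT D alone. The spacing of low values puts 1 read at an estimated 0.713 to 1.77 normalized counts and the depth at an estimated 23.9 to 52.2 M reads, with the 2 lowest depths in WT C and WT B. No source says that a letter marks shared animals, and the p-values set the difference between genotypes against the spread between these libraries. The methods of the paper describe pooling of retinae for RNA extraction, and the number of animals in a library is not stated. Rod genes were the most abundant of the marker lists (summed 1369881 to 1890663 normalized counts for 6 genes), and all 17 further Mueller glia markers were detected.

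The start regions of the genes are shown first because Nes lies next to a targeted locus and because Gfap is a known target of STAT3. In GRCm39, Nes occupies chr3:87878385-87887758 on the plus strand, and Bcan lies beyond its 3′ end on the minus strand at chr3:87894835-87910177, leaving 7076 bases between the 2 genes. The 235 bases before the annotated start of Nes (chr3:87878150-87878384, plus strand) and the 30 bases around a STAT motif of Gfap (chr11:102788009-102788038, minus strand) and of Slc1a3 (chr15:8740368-8740397, minus strand) are printed from the RefSeq promoter table, which was built on GRCm38.p6 and was placed in GRCm39 by exact match. Capitals mark the STAT motif TTCNNNGAA.
Nes: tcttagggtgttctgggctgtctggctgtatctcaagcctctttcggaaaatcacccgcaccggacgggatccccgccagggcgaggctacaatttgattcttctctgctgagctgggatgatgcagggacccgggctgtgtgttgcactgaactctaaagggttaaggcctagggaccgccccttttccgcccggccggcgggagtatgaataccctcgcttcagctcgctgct
Gfap: atgggggtgcTTCCAGGAAgtcaggggcag
Slc1a3: ttcaggatccTTCCAAGAAatttcagttat

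Of the 10 genes, 9 had an entry in the promoter table. In windows of 250 bases before and 50 bases after the RefSeq start site, TTCNNNGAA was found once in Gfap and once in Slc1a3, and in 8.3% of the 32851 windows of all genes. The stricter letters TTCCNGGAA, which are a subset of the first motif, were found in Gfap only among the 9 and in 1.15% of all windows. Both motifs read the same on either strand. The Gfap match spans the RefSeq start site, and the Slc1a3 match lies upstream of it. No match was found in the window of Nes, Vim, Glul, Stat3, Edn2, Lcn2 or S100b, which says only that these letters are not in these windows.

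Nes (ENSMUSG00000004891.17) had 230.9, 259.9, 314.5 and 198.3 normalized counts in WT A, B, C and D and 113.4, 138.6, 103.6 and 102.0 in quadruple KO A, B, C and D. Every quadruple KO library lay below every WT library, and the highest quadruple KO value (KO B) was well under the lowest WT value (WT D). The WT mean was 250.9 ± 49.3 and the quadruple KO mean 114.4 ± 16.9 (SD, n = 4 each), which leaves 45.6% of the WT level, and the log2 fold change was -1.12 ± 0.17 SE. WT B and WT C held the 2 highest values, and against WT A and WT D alone 53.3% remained (log2 fold change -0.91). Nes is one of the 77 genes called in the fit over all libraries. It was chosen for this difference, so the call is no test of it. The call was lost with WT A and WT D alone and in some other settings given with the processing, while the direction was kept. In bulk retina, fewer cells of a type and less RNA per cell cannot be told apart, for Nes or for any gene below.

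**Figure D1:**
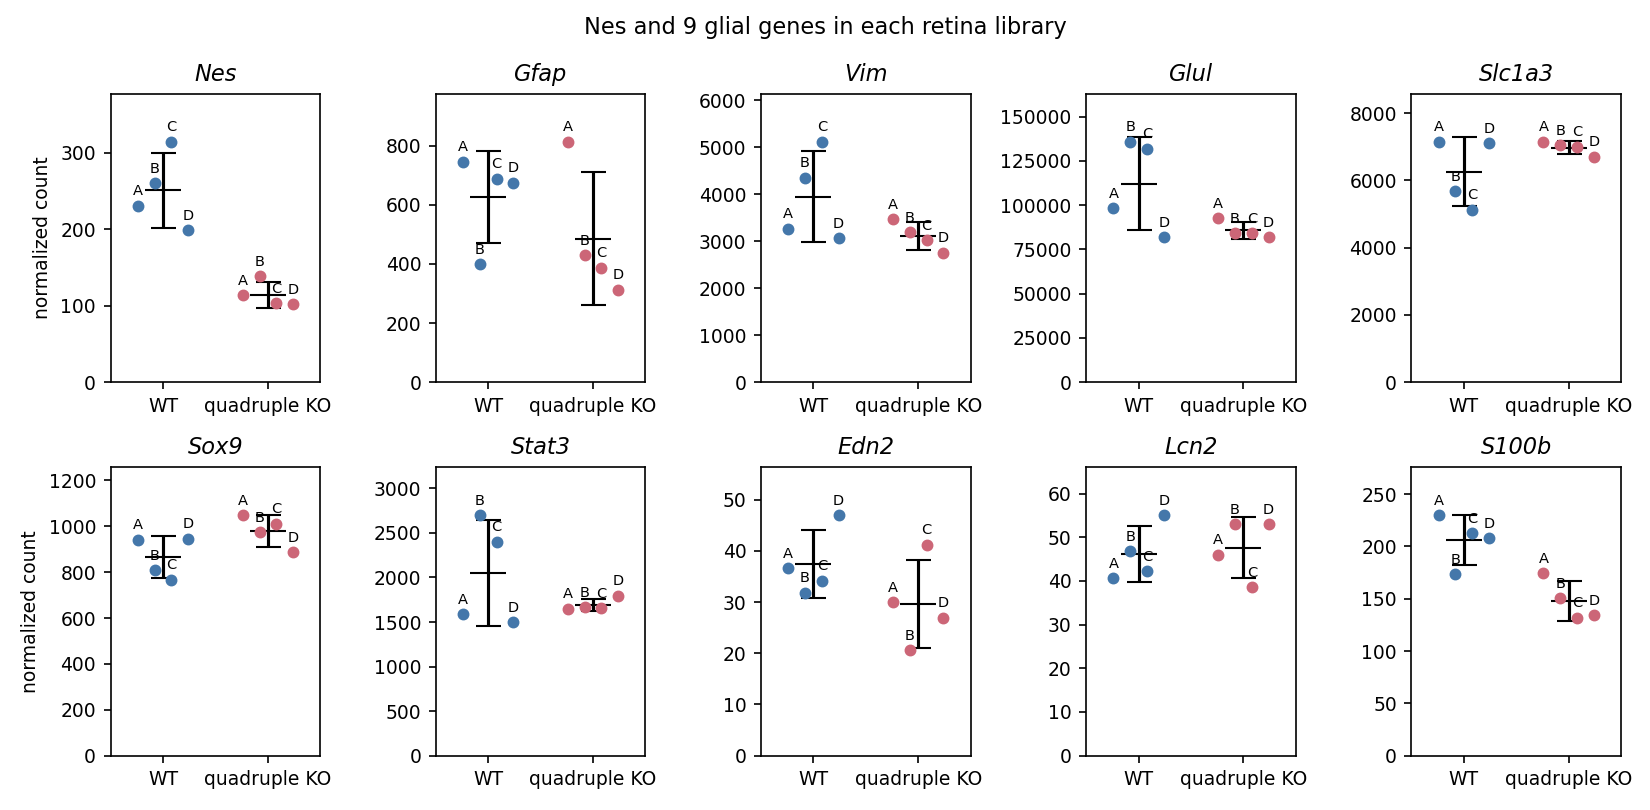
Normalized counts (y axis, linear, from 0) of Nes and the other 9 genes in each library, labelled A to D, for WT (blue) and quadruple KO (red); horizontal bars are means and vertical bars the SD (n = 4). The genotypes are separate only for Nes; WT B and WT C lie above the other WT libraries for Vim, Glul and Stat3 and below them for Slc1a3 and Sox9.

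In the WT retina the level of Nes followed that of Bcan from library to library. Normalized counts of Bcan were 237.2, 270.5, 326.5 and 197.2 in WT A to D, so that the ratio of Nes to Bcan was 0.973, 0.961, 0.963 and 1.01. In the quadruple KO, where Bcan was at 22.08, 11.49, 13.7 and 12.81, the ratio was 5.13, 12.1, 7.56 and 7.96. These ratios were looked at after the values had been seen. They compare counts per gene, not per length. The order of the WT libraries, with C highest and then B, A and D, was not particular to Nes and Bcan. It was the same for Vim and for Slc17a8 on chromosome 10.

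**Figure D2:**
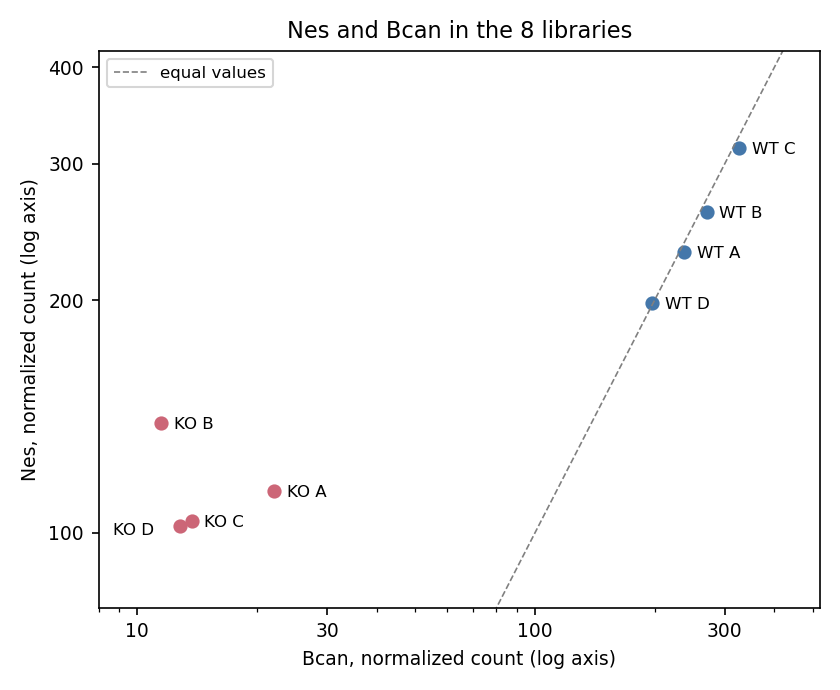
Normalized count of Nes (y) against Bcan (x), both on log axes, in the 8 libraries; the dashed line marks equal values. The 4 WT libraries (blue) lie along the line with ratios of 0.961 to 1.01, and the 4 quadruple KO libraries (red) lie above it with ratios of 5.13 to 12.1.

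Besides Bcan, no gene around Nes was called. Within 500 kb of Nes, 29 genes with a row were counted, and of the 27 tested besides Nes and Bcan 0 were called by limma (adjusted p between 0.301 and 0.975), 3 had an unadjusted p under 0.05 (11.1%), and 17 had a lower mean in the quadruple KO. Over all genes tested, 77 were called (0.437%), 31 of them lower (0.176%) and 46 higher (0.261%) in the quadruple KO, and 16.6% had an unadjusted p under 0.05. The median log2 fold change of the 27 genes was -0.05 with all WT libraries and 0.02 against WT A and WT D alone.

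The nearest tested gene on the left of Nes was Crabp2, which encodes a carrier protein of retinoic acid and lies 17701 bases away. It had 20.99, 33.51, 23.06 and 16.74 normalized counts in WT A to D and 12.63, 12.76, 13.32 and 14.33 in the quadruple KO. No WT library was as low as any of the quadruple KO libraries at these low counts, but the gene was not called (log2 fold change -0.74 ± 0.25 SE, limma adjusted p = 0.301; -0.47 against WT A and WT D alone). Of the 27 genes, Crabp2 alone was separated in this direction (3.7%), compared with 3.58% of all genes tested. On the right, beyond Bcan, the nearest tested gene was Gpatch4 at a log2 fold change of -0.54 ± 0.26 SE (limma adjusted p = 0.308; -0.05 against WT A and WT D alone), where WT B (227.8) and WT C (223.8) were high and WT A (112.6) and WT D (116.0) lay among the quadruple KO values of 99.21 to 135.3. The remaining 2 genes with an unadjusted p under 0.05 were Rrnad1 (-0.36; -0.06 against WT A and WT D alone, where WT B and WT C were high) and, with a higher mean, Slc25a44 (0.20; 0.14 against WT A and WT D alone); both were named after their values were seen.

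**Figure D3:**
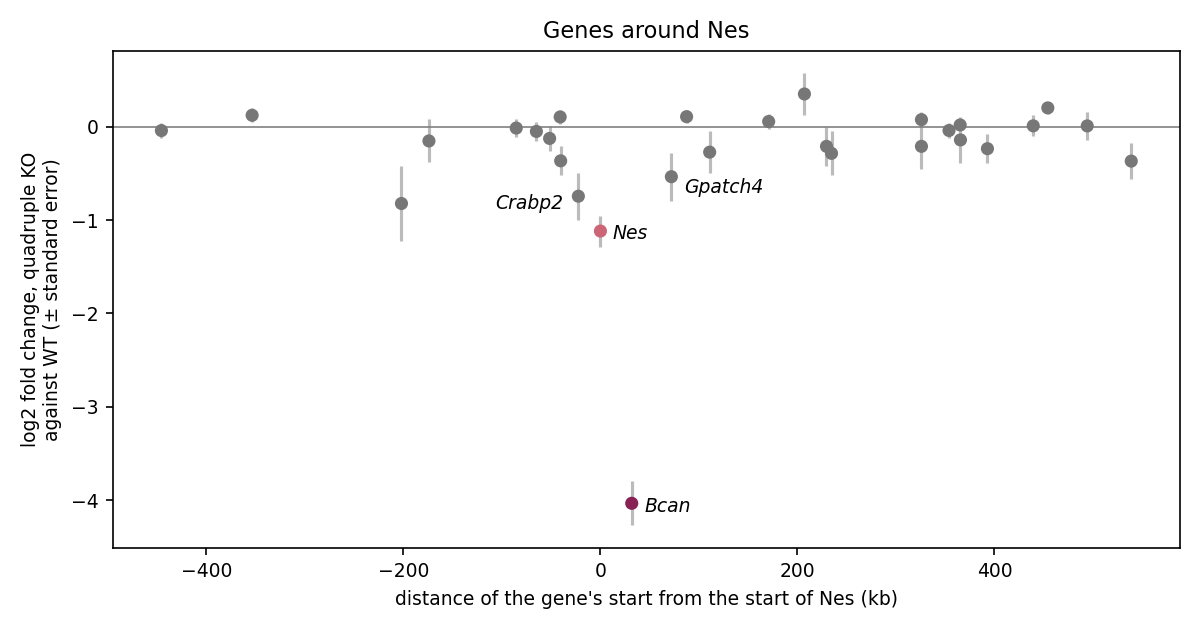
Log2 fold change between genotypes, quadruple KO over WT (y, ± standard error of the limma fit) of each tested gene around Nes against the distance of its start from the start of Nes (x, kb). Bcan is at -4.03 and Nes at -1.12, next to Crabp2 at -0.74, while most genes farther out lie near 0. Pear1, at -202 kb, is lower than Crabp2 with -0.82 (-0.19 against WT A and WT D alone, not drawn). It was named after its values were seen.

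Gfap, the filament protein of astrocytes and reactive Mueller glia, varied more than any other of the 10 genes within the quadruple KO, with a coefficient of variation of 46.1%. Its normalized counts were 746.3, 399.2, 687.8 and 675.1 in WT A to D and 813.6, 428.5, 387.0 and 313.3 in quadruple KO A to D. KO A had the highest value of all 8 libraries, KO C and KO D lay below all WT libraries, and KO B was between WT B and the other WT libraries. The WT mean was 627.1 ± 155.1 and the quadruple KO mean 485.6 ± 223.8 (SD, n = 4 each), and the difference did not exceed the spread between libraries (log2 fold change -0.43 ± 0.30 SE, 95% interval -1.10 to 0.24, limma adjusted p = 0.406). Against WT A and WT D alone it was -0.645 (limma adjusted p = 0.455), and without KO A -0.71 (limma adjusted p = 0.437).

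KO A also stood out for genes of oligodendrocytes, which are found in the optic nerve but not in the mouse retina. Of 4 oligodendrocyte markers, 2 had a row, and their sum was 1289 normalized counts in KO A, compared with 740.1 to 900.4 in WT and 809.5 in the lowest quadruple KO library. The myelin protein gene Mbp was at 1247 in KO A and at 790.4 to 878.9 in KO B to D, and Mag at 42.76 against 18.61 to 20.16. In WT, Mbp was at 708.6 to 869.4 and Mag at 21.21 to 46.68, so that only Mbp was higher in KO A than in every WT library. Whether these markers have a part in the Gfap value of KO A was not tested.

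Vim, which encodes vimentin, the most abundant of the 3 glial filament transcripts, had 3263, 4355, 5120 and 3065 normalized counts in WT A to D and 3473, 3193, 3024 and 2754 in the quadruple KO. WT B and WT C were above all other libraries, and WT A and WT D lay within the range of the quadruple KO. Its log2 fold change was -0.32 ± 0.16 SE (95% interval -0.68 to 0.04, limma adjusted p = 0.314), and it was -0.03 (standard error 0.09) against WT A and WT D alone. The lower mean of Vim thus rested on the 2 WT libraries that stand apart.

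The 2 genes of glutamate handling lay on opposite sides in WT B and WT C, Glul high and Slc1a3 low. Glul, which encodes glutamine synthetase, had 98453, 135955, 132019 and 81946 normalized counts in WT A to D and 92751, 84302, 84141 and 81844 in the quadruple KO. The WT mean was 112093 ± 26213 and the quadruple KO mean 85759 ± 4794 (SD, n = 4 each). WT A lay above every quadruple KO library, and the genotypes overlapped through WT D. Its log2 fold change was -0.36 ± 0.16 SE (95% interval -0.71 to -0.003, limma adjusted p = 0.301), and -0.07 (standard error 0.08) against WT A and WT D alone.

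Slc1a3 encodes the glial glutamate transporter GLAST. It had 7156, 5673, 5128 and 7101 normalized counts in WT A to D, with WT B and WT C low, and 7147, 7053, 7003 and 6702 in the quadruple KO. The coefficient of variation was 2.76% in the quadruple KO and 16.3% in WT. Its log2 fold change was 0.17 ± 0.11 SE (95% interval -0.08 to 0.42, limma adjusted p = 0.382) and changed sign to -0.03 (standard error 0.04) against WT A and WT D alone.

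Sox9, a transcription factor that maintains Mueller glia identity, had 941.9, 807.8, 766.5 and 945.8 normalized counts in WT A to D and 1049, 973.7, 1011 and 887.4 in the quadruple KO. KO A, B and C lay above all WT libraries and KO D among them (log2 fold change 0.18 ± 0.10 SE, 95% interval -0.04 to 0.40, limma adjusted p = 0.323). Against WT A and WT D alone the log2 fold change was 0.05 (standard error 0.07).

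Stat3, the transcription factor that transmits gp130 cytokine signals, had 1591, 2700, 2402 and 1495 normalized counts in WT A to D and 1648, 1664, 1654 and 1794 in the quadruple KO. WT B and WT C were above every other library, and every quadruple KO library was above WT A and WT D. The log2 fold change was -0.23 with all WT libraries (standard error 0.18, 95% interval -0.64 to 0.18, limma adjusted p = 0.453) and 0.13 (standard error 0.06, limma adjusted p = 0.432) against WT A and WT D alone. The direction of Stat3 thus depended on which WT libraries were used.

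The 2 secreted genes were near the lower end of the measured range. Edn2, the endothelin that is known to rise when photoreceptors are injured, had 36.64, 31.82, 34.17 and 46.99 normalized counts in WT A to D and 29.94, 20.57, 41.17 and 26.91 in the quadruple KO. KO C lay among the WT libraries and the other 3 below them (log2 fold change -0.35 ± 0.24 SE, 95% interval -0.90 to 0.19, limma adjusted p = 0.400). Against WT A and WT D alone the log2 fold change was -0.51 (limma adjusted p = 0.508). These values correspond to an estimated 18.0 to 57.7 reads per library.

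Lcn2, which encodes the iron-scavenging protein lipocalin-2 of reactive glia, had 40.65, 46.83, 42.17 and 55.08 normalized counts in WT A to D and 45.97, 53.0, 38.53 and 53.04 in the quadruple KO. The ranges of the genotypes covered each other almost completely (46.18 ± 6.49 against 47.63 ± 6.92, SD, n = 4 each). Its log2 fold change was 0.04 ± 0.18 SE (limma adjusted p = 0.901), with a 95% interval from -0.36 to 0.44, and -0.003 against WT A and WT D alone.

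S100b, which encodes a calcium-binding protein of Mueller glia and astrocytes, had 230.0, 173.3, 212.5 and 207.8 normalized counts in WT A to D and 174.5, 150.6, 132.0 and 134.5 in the quadruple KO. KO B, C and D lay below all WT libraries, and KO A was just above WT B. The WT mean was 205.9 ± 23.7 and the quadruple KO mean 147.9 ± 19.6 (SD, n = 4 each), 71.8% of WT. The unadjusted limma p was 0.00619 for S100b and 0.0483 for Glul, at the same adjusted p. S100b was not called (log2 fold change -0.48 ± 0.14 SE, 95% interval -0.78 to -0.17, limma adjusted p = 0.301). Unlike for Vim, Glul and Stat3, the difference was not carried by WT B and WT C, since it was -0.57 (standard error 0.14, limma adjusted p = 0.209) against WT A and WT D alone.

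Over the 9 genes other than Nes, 0 were called by limma and 2 had an unadjusted p under 0.05 (Glul and S100b, both lower), beside 16.6% of all genes tested in either direction and 7.28% in the lower direction. None of the 9 separated the genotypes completely, which 9.74% of all genes tested did. Their means were lower in 6 and higher in 3, with a median log2 fold change of -0.32 with all WT libraries and -0.03 against WT A and WT D alone, while the median of all genes tested was 0.00 and 0.01. WT B and WT C were both above WT A and WT D for 4 of the 10 genes (Nes, Vim, Glul and Stat3) and both below them for 3 (Slc1a3, Sox9 and Edn2).

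**Figure D4:**
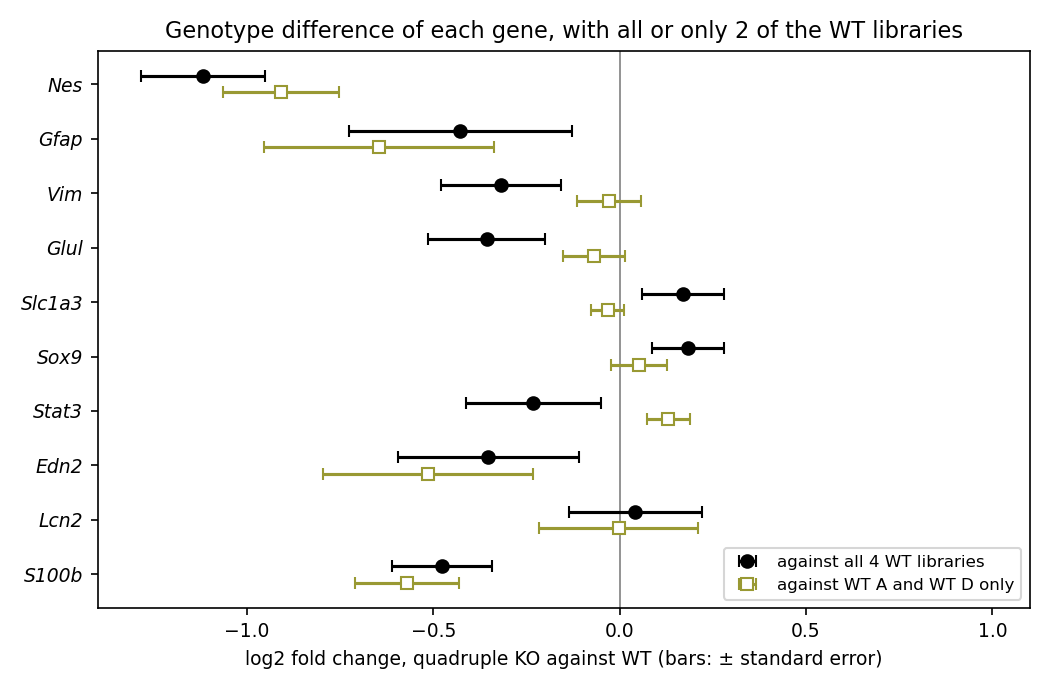
Log2 fold change between genotypes, quadruple KO over WT (x, bars ± standard error of the limma fit) of the 10 genes with all 4 WT libraries (filled circles) or with WT A and WT D alone (open squares). Vim moves from -0.32 to -0.03, Glul from -0.36 to -0.07 and Stat3 from -0.23 to 0.13, whereas Nes moves from -1.12 to -0.91 and S100b from -0.48 to -0.57.

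Per kb of exonic length, Glul was by far the highest in WT with 28392 normalized counts per kb, followed by Vim (831.4), Slc1a3 (429.2), Sox9 (207.3), Stat3 (202.8), Gfap (109.8), S100b (103.1), Nes (39.1), Edn2 (25.6) and Lcn2 (17.6). Sox9 and Stat3 did not differ beyond their spread, nor did Gfap and S100b, and the lowest Nes library (30.9) overlapped the highest Edn2 library (32.1). In the quadruple KO the first 7 genes kept this order, and Nes dropped from the 8th to the 10th place with 17.8 ± 2.63 per kb, within the spread of Edn2 (20.3 ± 5.89) and Lcn2 (18.2 ± 2.64; SD, n = 4 each). Lengths are those of all annotated exons, which need not be the ones used in this tissue.

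Wider sets of glial genes, of pathway genes and of markers of other cell types were described by 13 lists with 127 genes, of which 116 had a row and 114 were tested. By limma, 0 of the 114 were called, and 24 had an unadjusted p under 0.05, beside 16.6% of all genes tested. None of the genes named from these lists therefore passed the test, and their values are given as measured.

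The 17 further Mueller glia markers were balanced, with 9 lower and 8 higher means and a median log2 fold change of -0.01 (0.04 against WT A and WT D alone). Their summed level was 90673 to 95845 normalized counts in WT and 92067 to 97768 in the quadruple KO. The highest log2 fold change was that of Kcnj10, the inward rectifier potassium channel of the glial endfeet (0.34 ± 0.14 SE, limma adjusted p = 0.301), where WT B and WT C were low and the value against WT A and WT D alone was 0.07. The lowest was that of Hes1, a Notch target (-0.36 ± 0.19 SE, limma adjusted p = 0.321; -0.07 against WT A and WT D alone). The ranges of the summed level overlapped between the genotypes. For 1 of the 17 genes the genotypes did not overlap, beside 9.74% of all genes tested. This was Dkk3, at 23133 to 24783 normalized counts in WT and 25681 to 26438 in the quadruple KO (log2 fold change 0.13, and 0.135 against WT A and WT D alone). It was named after its values were seen.

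Of 17 further genes of reactive glia, 13 had a row, with 3 lower and 10 higher means and a median log2 fold change of 0.19 (0.08 against WT A and WT D alone). The highest log2 fold change was that of Cd44, a hyaluronan receptor, with 260.8, 245.7, 244.1 and 295.3 normalized counts in WT A to D and 387.4, 305.8, 329.5 and 318.0 in the quadruple KO. All 4 quadruple KO libraries of Cd44 lay above all WT libraries (log2 fold change 0.35 ± 0.11 SE, limma adjusted p = 0.301; 0.26 against WT A and WT D alone). The genotypes did not overlap for 2 of the 13 genes, beside 9.74% of all genes tested. The second was Fgf2, also higher (0.18, and 0.15 against WT A and WT D alone) and named after its values were seen. The lowest was that of Hspb1, a small heat shock protein gene (-0.54 ± 0.28 SE, limma adjusted p = 0.321; 0.00 against WT A and WT D alone), with 182.8 and 181.7 in WT B and WT C, 82.51 and 90.32 in WT A and WT D, and quadruple KO values from 72.07 to 100.7. Serpina3n, Steap4 and C3, which are widely used marks of reactive astrocytes, had log2 fold changes of 0.31, 0.25 and 0.24 with limma adjusted p between 0.403 and 0.647. Against WT A and WT D alone their log2 fold changes were -0.11, 0.115 and 0.17, and Serpina3n thus changed sign, with WT B (403.8) and WT C (380.9) below the other 6 libraries. These 3 genes were named after their values were seen.

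In the gp130 and STAT3 pathway, 17 of 19 genes were tested, with 7 lower and 10 higher means and a median log2 fold change of 0.05 (0.06 against WT A and WT D alone). An unadjusted limma p under 0.05 was reached by 4 of the 17, beside 16.6% of all genes tested. The genotypes did not overlap for 2 of the 17, beside 9.74%. These were Jak1 (0.305, and 0.11 against WT A and WT D alone) and Jak2 (0.17, and 0.09), both higher and named after their values were seen. Socs1, a suppressor of cytokine signalling, was lowest (-0.68 ± 0.24 SE, limma adjusted p = 0.301; 24.78 to 39.23 normalized counts in WT and 15.61 to 25.13 in the quadruple KO; -0.42 against WT A and WT D alone). Ptpn6, a phosphatase gene mostly of blood cells, was highest at low counts (0.71 ± 0.39 SE, limma adjusted p = 0.328; 3.938 to 14.18 in WT and 13.21 to 21.43 in the quadruple KO; 0.38 against WT A and WT D alone). Socs3, the feedback inhibitor that STAT3 induces, was at 76.67 to 96.88 in WT and 83.81 to 112.6 in the quadruple KO (0.23 ± 0.14 SE, limma adjusted p = 0.371; 0.24 against WT A and WT D alone) and was named after its values were seen. The 6 tested genes of the endothelin pathway had a median of -0.05 (-0.01 against WT A and WT D alone), between Edn3 (0.38 ± 0.31 SE, limma adjusted p = 0.472; 0.135 against WT A and WT D alone) and the receptor gene Ednra (-0.20 ± 0.27 SE, limma adjusted p = 0.670; -0.51 against WT A and WT D alone).

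The other intermediate filament genes leaned to lower values, with lower means in 10 of 11 and a median log2 fold change of -0.23 (-0.11 and 6 of 11 against WT A and WT D alone). Nefh, the heavy neurofilament gene of neurons, was lowest (-0.43 ± 0.16 SE, limma adjusted p = 0.301; -0.15 against WT A and WT D alone), and the nuclear lamin gene Lmnb1 was highest (0.08 ± 0.09 SE, limma adjusted p = 0.568; 0.12 against WT A and WT D alone). The 3 genes with an unadjusted p under 0.05 were the neuronal filament genes Nefl, Nefh and Ina, all lower, beside 7.28% of all genes tested in the lower direction. Nefl (-0.23, and -0.215 against WT A and WT D alone) and Ina (-0.27, and -0.11) were named after their values were seen. Of the 11 genes, only Nefl had no overlap between the genotypes, beside 9.74% of all genes tested. It was at 15589 to 17480 normalized counts in WT and 12746 to 14807 in the quadruple KO. Of 11 tested progenitor and cell cycle genes, 6 had lower and 5 higher means, with a median of -0.02 (0.08 against WT A and WT D alone), between Ccnd1, encoding cyclin D1 (-0.41 ± 0.18 SE, limma adjusted p = 0.301; -0.08 against WT A and WT D alone), and the cell cycle inhibitor gene Cdkn1b (0.35 ± 0.14 SE, limma adjusted p = 0.301; 0.08).

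Of the 6 astrocyte markers 4 had lower means, each with an unadjusted p under 0.05 but not called, beside 7.28% of all genes tested in the lower direction. The median log2 fold change was -0.29 with all WT libraries and -0.47 against WT A and WT D alone. The genotypes did not overlap for 3 of the 6 (Fgfr3, Pdgfra and Aldh1l1), all lower. Of all genes tested 9.74% did not overlap in either direction and 3.58% in the lower direction. Pax2, a transcription factor of retinal astrocytes and the optic stalk, was lowest, with 17.09, 28.64, 28.31 and 25.85 normalized counts in WT A to D and 17.8, 12.71, 12.35 and 11.3 in the quadruple KO (log2 fold change -0.83 ± 0.26 SE, limma adjusted p = 0.301; -0.62 against WT A and WT D alone). Fgfr3, a fibroblast growth factor receptor gene, was separated between the genotypes at 24.0 to 33.78 in WT and 12.28 to 19.67 in the quadruple KO (-0.81 ± 0.23 SE, limma adjusted p = 0.301; -0.75 against WT A and WT D alone). Pdgfra, the receptor gene through which astrocytes respond to platelet-derived growth factor, was at 364.1 to 414.9 in WT and 293.8 to 338.7 in the quadruple KO (-0.30 ± 0.09 SE, limma adjusted p = 0.301; -0.33 against WT A and WT D alone), and Aldh1l1 at 452.5 to 657.6 and 392.0 to 443.6 (-0.29 ± 0.12 SE, limma adjusted p = 0.301; -0.13 against WT A and WT D alone). Fgfr3, Pdgfra, Aldh1l1 and Gja1 were named after their values were seen.

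Aldh1l1 and Pdgfra do not mark astrocytes alone, since they are also found in other retinal cells. Gja1, the gap junction gene of astrocytes, was at 255.9, 81.32, 101.6 and 261.3 in WT A to D and at 134.5 to 237.7 in the quadruple KO, and its log2 fold change turned from 0.14 to -0.61 against WT A and WT D alone. Slc6a11, a GABA transporter gene also used by Mueller glia, had the highest log2 fold change of the list (0.24 ± 0.12 SE, limma adjusted p = 0.315; 0.01 against WT A and WT D alone). The summed level of the 6 genes was 7289 to 9837 in WT and 9259 to 10306 in the quadruple KO and is mostly that of Slc6a11. KO B, C and D for S100b and KO C and KO D for Gfap lay below all WT libraries; whether the content of astrocytes has a part in those values was not tested.

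Markers of other cell types that the samples could hold varied without calls. The 11 endothelial and pericyte genes ran from Acta2, smooth muscle actin (-0.44 ± 0.18 SE, limma adjusted p = 0.301; -0.46 against WT A and WT D alone), to Tek, the angiopoietin receptor gene (0.42 ± 0.13 SE, limma adjusted p = 0.301; 0.34 against WT A and WT D alone), with a median of 0.11 (0.00 against WT A and WT D alone). The 6 tested microglia genes ran from Csf1r (-0.40 ± 0.23 SE, limma adjusted p = 0.344; 0.02 against WT A and WT D alone) to P2ry12 (0.63 ± 0.36 SE, limma adjusted p = 0.341; -0.10 against WT A and WT D alone), where WT B and WT C were low (32.07 and 33.49, where the other 6 libraries had 79.11 to 94.89). The 6 rod genes ran from Prph2 (-0.15) to Gnat1 (0.28), the 4 pigment epithelium genes from Ttr (-0.32) to Best1 (0.54), and the 4 fibroblast and sclera genes from Col3a1 (-1.19) to Dcn (0.88), with limma adjusted p between 0.301 and 0.493. Against WT A and WT D alone these 6 genes were at 0.07 (Prph2), 0.08 (Gnat1), -0.27 (Ttr), 0.49 (Best1), -0.19 (Col3a1) and 0.305 (Dcn). The list medians were -0.13 for microglia, -0.07 for oligodendrocytes, 0.07 for rods, 0.15 for the pigment epithelium and -0.51 for fibroblasts and sclera. Against WT A and WT D alone they were -0.02, 0.04, 0.08, -0.18 and -0.06, so that those of the oligodendrocytes and the pigment epithelium changed sign. Col3a1 was at 66.26 and 96.69 in WT B and WT C and at 13.83 to 20.75 in the other 6 libraries. The genotypes did not overlap for 1 gene each of the endothelial (Tek), microglia (Cx3cr1) and rod (Sag) lists, beside 9.74% of all genes tested. Cx3cr1 was at 87.26 to 114.6 normalized counts in WT and 127.5 to 153.8 in the quadruple KO (log2 fold change 0.41, and 0.33 against WT A and WT D alone). Sag was also higher (0.21, and 0.21 against WT A and WT D alone). Cx3cr1 and Sag were named after their values were seen.

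**Figure D5:**
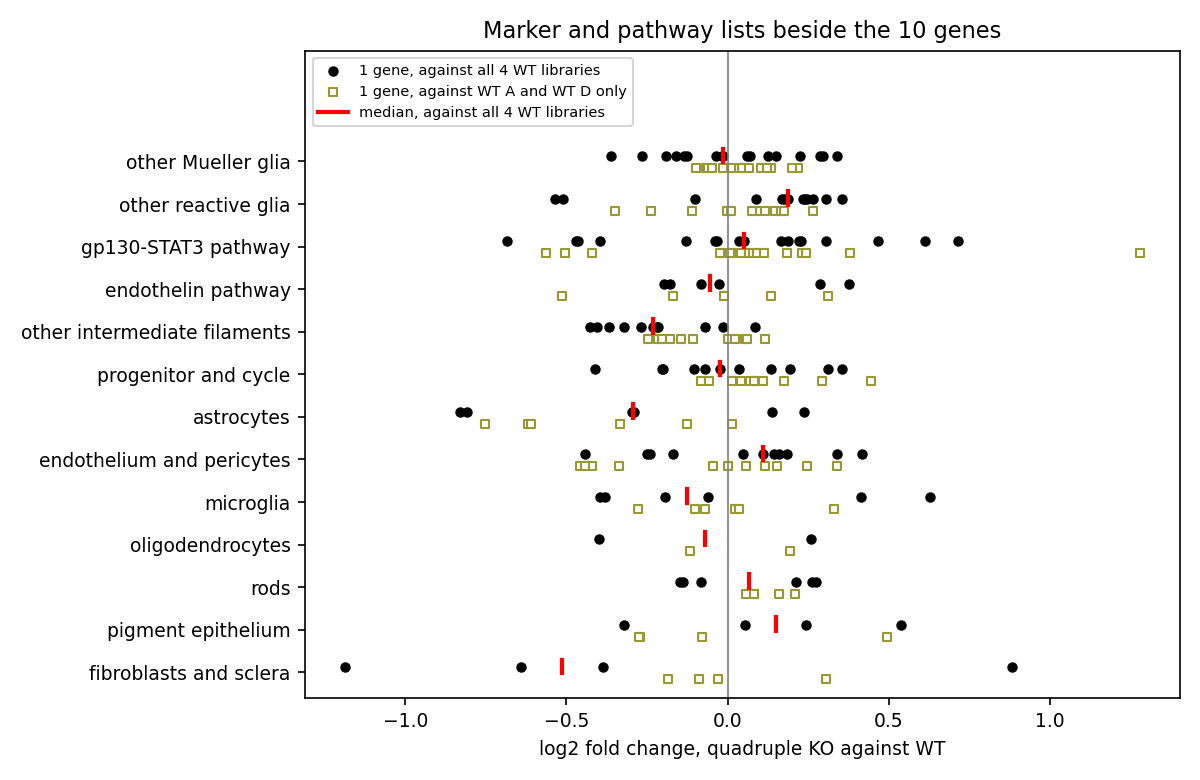
Log2 fold change between genotypes, quadruple KO over WT (x) of each tested gene of the 13 lists (rows), with all WT libraries (filled circles, median as a red bar) or with WT A and WT D alone (open squares). The median is -0.01 for the other Mueller glia markers and 0.19 for the other reactive glia genes, and the astrocyte list has a median of -0.29.

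The genes whose log2 levels over the 8 libraries were most like those of Nes were Gm40864 (Pearson r = 0.994), Slc17a8, the vesicular glutamate transporter gene of a class of amacrine cells (0.989), Pwwp3b (0.978), Zmat5 (0.978) and Gm13237 (0.975). They lie on chromosomes 12, 10, X, 11 and 4, and Bcan, the neighbour of Nes, ranked 29th with r = 0.946. Slc17a8 had 472.5, 545.1, 567.0 and 403.1 normalized counts in WT A to D and 216.4, 276.9, 235.8 and 211.3 in the quadruple KO. Of the other 9 genes, r with Nes lay between -0.739 for Sox9 and 0.805 for S100b. Nes was chosen for its difference between the genotypes, which enters these values, and all genes share the same 8 libraries.

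The genes most like Gfap were Etfbkmt (Pearson r = 0.946), Gm47204 (0.931), Fuca1 (0.928), Pamr1 (0.906) and Gm30524 (0.900), over the same 8 libraries. Fuca1, which encodes a lysosomal fucosidase, had 1105, 932.9, 1030 and 1099 normalized counts in WT A to D and 1127, 935.4, 952.5 and 948.3 in the quadruple KO, with KO A highest as for Gfap. Gm30524 was at 58.5 in WT A and 49.74 in KO A and at 8.666 to 24.38 in the other 6 libraries. The correlation of Nes with Gfap was 0.419.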

How the data were processed

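Retinal total RNA (450 ng per library, directional total RNA kit) from 4 WT and 4 quadruple KO samples was sequenced by the authors. According to the submitters' processing notes and the methods, Trim Galore 0.6.7 was used for trimming, and reads were aligned with STAR 2.7.9a to GRCm39, quantified with Salmon 1.5.2 and compared with DESeq2 1.32.0 in R 4.1.1. The authors deposited 1 table of normalized counts, which are Salmon estimated counts divided by the DESeq2 normalization factors, for 18058 genes with an adjusted p. Its columns of fold changes, errors and p-values hold the authors' own comparison and were not used. Raw counts were not used here, so depth was estimated from the spacing of values under 6: between 46.6% and 74.8% of them per library lay within 0.1 of a whole step, and whole reads were not recovered.

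Libraries were mapped to genotypes by column name. After adding a pseudocount of 1 and taking log2, the 17636 genes whose mean reached 10 normalized counts were fitted with limma 3.58.1 in R 4.3.3 (lmFit, eBayes with trend, no covariates), with Benjamini-Hochberg adjustment over all of them. The steps were tested on simulated data. Members, gene lists, tests and alternatives were chosen with earlier results of these data known. Named are the 10 members, the 4 targeted genes, the nearest tested genes beside Nes, the highest and lowest log2 fold change and any called gene of each list, and the 5 genes most like Nes and Gfap; others are marked in the text. Gene positions and exonic lengths are from GENCODE vM39. Tables and plots were made with Python 3.11.15, pandas 2.3.3, numpy 2.4.6 and matplotlib 3.10.9. The alternatives were rescaling by median ratios, no filter or a minimum mean of 100, pseudocounts of 10 and 0.1, library weights, the letter as a block, leaving out each library, and WT A and WT D alone. Results for 2 further genes are not reported here, and these genes enter no count of a list or of the neighbourhood of Nes.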

Additional observations from a re-analysis of the deposited data

Results flagged for a closer look

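With 4 libraries per genotype, a value was looked at again where the gap between the highest or lowest library and its neighbour was a large part of the range of its group (Dixon's ratio above the 95% critical value). The check covered 82 groups of 41 genes, and chance flags about 1 group in 20. It marked 4 groups, each for the highest of the 4 quadruple KO libraries. Stat3 was marked for KO D, with 1794 normalized counts against 1648 to 1664 in KO A to C (ratio 0.892). Mag, a gene of myelin, was marked for KO A (0.936), which is also the library with the highest Gfap value. The endothelin receptor gene Ednra was marked for KO C (0.842; 31.9 normalized counts against 18.36 to 20.51), the library in which Edn2 was highest in the quadruple KO. Best1, a gene of the pigment epithelium, was marked for KO B (0.876).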

How the results depend on the processing

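The 77 genes called over the whole table became 143 with library weights, which gave WT B and WT C weights of 0.164 and 0.156, and between 56 and 89 with single libraries left out; the cause was not tested. No paired reading of the letters was used, since deviations of libraries with the same letter correlated at -0.109 to 0.098; with the letter as a replicate block there were 51 calls. Under each of the 16 alternatives 0 of the 9 other members, of the list genes and of the neighbours of Nes were called. Of the 9 members, S100b with library weights came nearest to a call (log2 fold change -0.586, limma adjusted p = 0.0552). The log2 fold change of Nes lay between -1.22 and -0.91. Nes was among the called genes in the main comparison and in 9 of the 16 alternatives. It was not among them with the block, with WT A and WT D alone (93 calls), or without WT A, WT B, KO A, KO C or KO D. The cause was not tested, and these calls are no test of Nes, which was chosen for its difference. Of 142 values of the 9 other members under alternatives 134 kept their direction and side of the threshold and 8 changed sign: Slc1a3 with library weights (-0.002) and against WT A and WT D alone (-0.032), Stat3 under the same 2 (0.052 and 0.131), and Lcn2 against WT A and WT D alone (-0.003) and without WT A, KO B or KO D (single libraries left out gave -0.015 to 0.138). Edn2 and Lcn2, at an estimated 18.0 to 71.9 reads per library, are limited by depth.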
